A study of Rattus norvegicus with 24 samples.

Results

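The spread of gene expression between rats of the same group was compared in kidneys of outbred Sprague Dawley (CD) and inbred Brown Norway (BN) females. All 12 RNA-seq libraries of the series were used, of 24 libraries in all, the others being bisulfite libraries not used here. There were 3 rats in each of 4 groups: CD non-pregnant (CD-NP), CD at pregnancy day 18 (CD-P18), BN non-pregnant (BN-NP) and BN at pregnancy day 18 (BN-P18). The rats were 6 to 8 weeks old by the growth label and 2 months old by the age tag, no group carried a transgene or received a drug, and pregnancy was the only treatment. RNA came from a kidney section, and 1 library was made per rat. Of 32883 genes in the count table, the 11217 with a mean of at least 5 CPM (read counts scaled to the size of the library) over the 12 rats were compared, and 2518 of these could be given a gene symbol. The study used CD rats as a model of normal pregnancy and BN rats as a model of pregnancy with preeclampsia-like signs.

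An inbred strain is kept by mating brothers with sisters over many generations, so that its animals carry nearly the same alleles at every locus. An outbred stock is bred to keep many alleles in the colony, and any few of its animals can differ in genotype. Expression can also differ between animals of 1 genotype, through the hour of sampling, handling, feeding, infection and the exact piece of tissue taken. The comparison asked whether outbred rats spread more widely around their group mean than inbred rats. It concerned spread and not level, so that a gene could be low in every rat of a strain and still have a narrow spread.

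The gene counts of a rat summed to between 8274159 and 11879451 reads, with overlapping ranges in the 4 groups. The sodium-phosphate carrier Slc34a1 of the proximal tubule was between 1435 and 3123 CPM in all 12 rats, and the podocyte surface protein Podxl between 453 and 667 CPM, as in kidney that holds cortex. Reads were aligned to a genome assembly of the BN strain. A CD allele that aligns less well to it cannot be told apart here from a lower level.

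Over all genes the spread was nearly the same in the outbred and the inbred rats. The between-rat standard deviation (SD) of log2 CPM, pooled over the NP and P18 groups on 4 degrees of freedom, had a median of 0.128 in CD and 0.133 in BN. An SD of this size is a typical distance from the group mean of 9.30% in CD and 9.64% in BN. The variance was higher in CD for 5355 genes, or 47.7%. The median log2 ratio of the CD over the BN variance was -0.09, and 90% of genes lay between -2.83 and 2.77. A ratio of more than 4 times was found for 1224 genes (10.9%) with the higher variance in CD and for 1393 genes (12.4%) with the higher variance in BN.

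The deviation of each rat from its group mean was then summarised as a root mean square (RMS) over the 11217 genes. The RMS deviation on the log2 scale was 0.264, 0.215 and 0.222 in CD-NP rats 1 to 3 and 0.192, 0.196 and 0.194 in the CD-P18 rats. It was 0.213, 0.165 and 0.194 in the BN-NP rats and 0.221, 0.178 and 0.216 in the BN-P18 rats. Every CD-NP rat lay above every BN-NP rat, whereas at P18 the strains overlapped. The mean was 0.214 ± 0.0271 (SD, n = 6) in CD and 0.198 ± 0.0225 (SD, n = 6) in BN. The difference of 0.0160 was smaller than the SD of either strain (exact two-sided permutation test within stage, p = 0.32, smallest possible p 0.005). Without CD-NP rat 1, the rat with the largest deviation, the difference was 0.000352. Within a stage, where 3 rats against 3 cannot give a p below 0.1, CD minus BN was 0.0428 in non-pregnant rats (exact permutation p = 0.1) and -0.0107 at P18 (exact permutation p = 0.4). P18 minus NP over both strains was -0.0124 (exact permutation p = 0.435). The 3 deviations of a group share a mean and are therefore not fully independent.

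**Figure D1:**
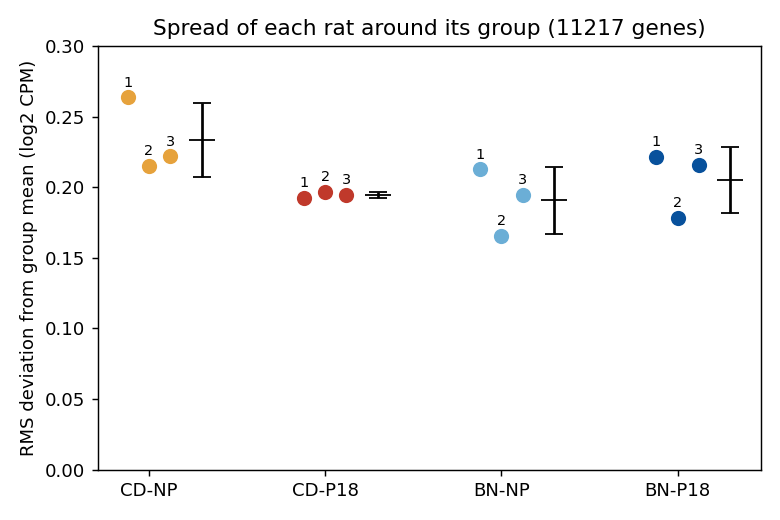
RMS deviation of each rat from its group mean, on the log2 CPM scale, over the 11217 genes compared. Points are rats with their replicate number, and the bars beside them give the mean ± SD of 3 rats. CD-NP rats sit between 0.215 and 0.264 and the 9 other rats between 0.165 and 0.221.

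By group, the median SD was 0.124 in CD-NP and 0.108 in CD-P18, and the BN groups had 0.118 (BN-NP) and 0.126 (BN-P18). An SD of at least 1, where a doubling is a typical distance from the group mean, was reached by 59 genes in CD-NP and 23 in CD-P18. In BN-NP it was reached by 20 genes, and in BN-P18 by 30. Between pairs of rats in a group, 149 and 164 genes differed by more than a doubling when CD-NP rat 1 was compared with rats 2 and 3. The other CD pairs gave 65 to 83 such genes and the BN pairs 37 to 136. The narrowest pair was BN-NP rats 2 and 3.

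The strains parted at the extreme. When each gene was tested alone, with the CD variance set against the BN variance moderated by limma, 38 of 11217 genes (0.339%) had a wider spread in CD at a Benjamini-Hochberg adjusted p under 0.1. In the reverse test 1 gene (0.00892%) had a wider spread in BN. At an unadjusted p under 0.05 the counts were 340 (3.03%) and 300 (2.67%), which are much closer to each other. Without BN-NP rat 2, BN-P18 rat 2 or BN-P18 rat 3, the count of 38 fell to 20, 23 and 25, and without CD-NP rat 1 the BN count rose to 9. A plain ratio of variances and a limma test of absolute deviations made 0 calls in either direction. On simulated counts these tests recovered 4 and 0 of 100 genes of at least 20 CPM given a variance 30 times larger in CD. Their 0 calls therefore cannot decide whether the 38 genes differ in spread. At an unadjusted p under 0.05 the plain ratio gave 328 genes wider in CD and 321 wider in BN, and the absolute deviations 752 and 788. The number of genes with an SD of at least 0.5 was 219 in CD (1.95%) and 172 in BN (1.53%). With an SD of at least 1 it was 38 in CD (0.339%) and 24 in BN (0.214%), and with an SD of at least 2 it was 11 (0.0981%) and 2 (0.0178%). The 1% of genes with the largest variance held 32.1% of all between-rat variance in CD and 23.2% in BN. For comparison, pregnancy gave 3 genes (0.0267%) with a wider spread at P18 and 6 (0.0535%) at NP by the same test, and 201 (1.79%) and 344 (3.07%) at an unadjusted p under 0.05.

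**Figure D2:**
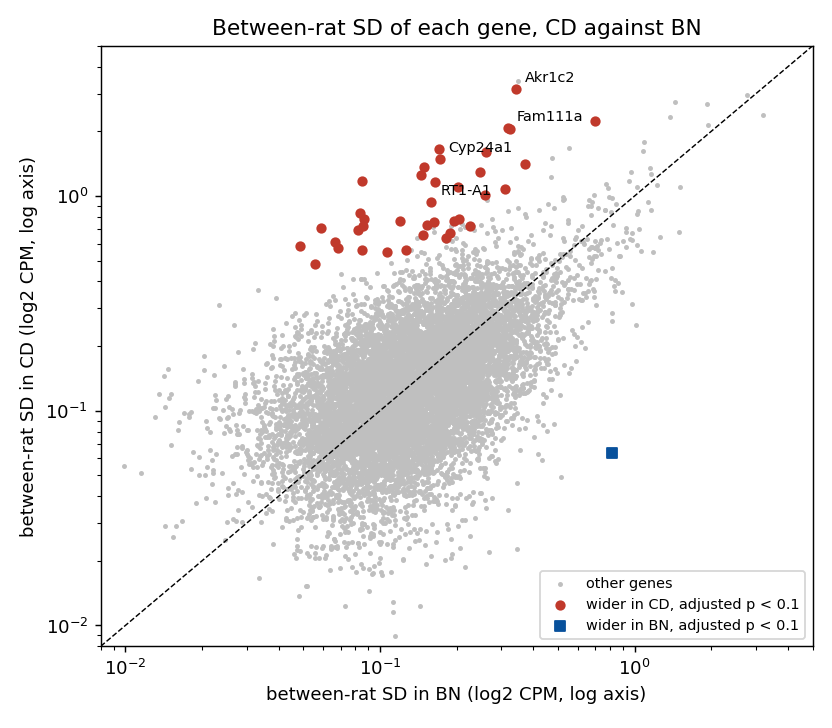
Between-rat SD of log2 CPM of each of the 11217 genes in CD (vertical) against BN (horizontal), both axes logarithmic. Red points are the 38 genes wider in CD and the blue square the 1 gene wider in BN at an adjusted p under 0.1, and the dashed line marks equal SD. The red points lie far above the line at SDs in BN that are common for all genes.

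Of the 38 genes with an SD of at least 1 in CD, 13 also reached 1 in BN. All 13 were highest in CD-NP rat 1 among the CD rats. All 13 also correlated at 0.8 or more with the leading axis of the CD deviations. This axis separates CD-NP rat 1 (score 0.21) from the other CD rats (-0.12 to 0.06). Genes with large deviations, these 13 among them, weigh most in the axis, so their correlation with it is partly built in. Of all 11217 genes compared, 1693 had an absolute correlation of at least 0.8 with the axis. None of these 13 carried a symbol. Of the 18 genes with an SD of at least 1 in CD and under 0.5 in BN, none correlated with that axis at 0.8 or more. Among these 18, 15 belonged to the 38 genes past the threshold, and none of the 13 did. These groups of widest genes were chosen by their spread, and no test was made on them.

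For the 38 CD-wide genes, the rat farthest from its group mean was CD-NP 1 for 6 genes, CD-NP 2 for 4, CD-NP 3 for 7, CD-P18 1 for 7, CD-P18 2 for 8 and CD-P18 3 for 6, so that each CD rat led for some. The lowest and highest CD rat differed by a median of 4.58 times, and the lowest and highest BN rat by 1.44 times, over both stages. All 6 BN rats lay inside the CD range for 19 genes, above every CD rat for 5 and below every CD rat for 4. Symbols were known for 12 of the 38 (0.477% of the genes with a symbol).

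Among the CD-wide genes the largest SD in CD was that of Akr1c2, a member of the aldo-keto reductases that reduce steroids and other carbonyl compounds. It was at 0.194, 0.315 and 0.327 CPM in the CD-NP rats and at 263, 241 and 1.02 CPM in the CD-P18 rats. BN-NP rats had 265, 184 and 141 CPM and BN-P18 rats 292, 268 and 236 CPM. A pair of CD rats thus stood at the level of the BN rats and the other 4 near 0, at a few reads each. The SD was 3.14 in CD and 0.342 in BN (limma-moderated variance ratio, adjusted p = 0.000236). The CD value came from the P18 group, and without CD-P18 rat 3 the log2 variance ratio turned from 6.4 to -1.62. Near-identical family members could share reads with this gene.

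Cyp24a1, the enzyme that inactivates vitamin D, had 39.5, 29.7 and 168 CPM in the CD-NP rats and 119, 121 and 17.1 CPM in the CD-P18 rats. In BN it was between 7.45 and 8.87 CPM in the 3 NP rats and between 141 and 185 CPM in the 3 P18 rats. BN rats of a group were thus close to each other at both levels, while the CD stages overlapped, with the highest rat of all 6 non-pregnant and the lowest pregnant. The SD was 1.48 in CD and 0.172 in BN (limma-moderated, adjusted p = 0.000572), and the call held without any single rat. Of the 6 measured genes of vitamin D and mineral handling, all had the higher variance in CD, against 48.3% of all genes with a symbol. Only Cyp24a1 of the 6 passed the test, which 0.477% of genes with a symbol passed. The calcium channel Trpv5 had SDs of 0.217 and 0.134 in CD and BN, and the phosphate exporter Xpr1 0.118 and 0.112.

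Fam111a, a nuclear protease that acts in DNA replication, was at 167, 135 and 4.80 CPM in the CD-NP rats and at 246, 111 and 254 CPM in the CD-P18 rats, against 1.26 to 2.65 CPM in the 6 BN rats. CD-NP rat 3 was therefore near the BN level and 5 CD rats far above it. The SDs were 2.06 and 0.318 (limma-moderated, adjusted p = 0.00202), and the call rested on that rat, since without it the adjusted p was 1.

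Enzymes of fatty acid, aldehyde and drug metabolism also stood among the named genes. Acsm3, which activates medium-chain fatty acids, had 265, 229 and 114 CPM in CD-NP and 190, 337 and 98.0 CPM in CD-P18, against 66.5 to 92.0 CPM in BN (SD 0.779 and 0.0863, limma-moderated adjusted p = 0.00218). Aldh1b1, a mitochondrial aldehyde dehydrogenase, was low, with 0.509 to 5.6 CPM in CD and 7.29 to 12.3 CPM in BN (SD 1.25 and 0.144, limma-moderated adjusted p = 0.0397). Its call was lost without CD-P18 rat 2 or 3, BN-NP rat 2, or BN-P18 rat 2 or 3. The list of drug-metabolising enzymes had 19 measured members, and 14 of them had the higher variance in CD, against 48.3% of all genes with a symbol. The list's median log2 variance ratio was 1.54, against -0.06 over genes with a symbol, but none of its members passed the test. The sulfotransferase Sult1c2 came closest, with 77.7, 37.1 and 73.9 CPM in CD-NP and 58.3, 33.7 and 27.2 CPM in CD-P18 against 11.9 to 22 CPM in BN (limma-moderated, adjusted p = 0.230). At the other end of the list the monooxygenase Fmo2 had an SD of 0.0800 in CD and 0.273 in BN (limma-moderated, adjusted p = 1 for BN). Outside the list, and named here after its values were seen, the cytochrome P450 Cyp2b2 had the largest CD SD of all genes compared. Its SD was 3.43 in CD and 0.348 in BN, and it did not pass the test either.

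Lgr6, a receptor for R-spondins in Wnt signalling, was at 0.582 CPM in CD-NP rat 1 and 1.02 CPM in CD-P18 rat 3 against 3.49 to 3.95 CPM in the other CD rats and 8.87 to 11.4 CPM in BN (limma-moderated, adjusted p = 0.0639). The call for Lgr6 was lost without CD-NP rat 1, CD-P18 rat 3, BN-NP rat 2 or 3, or BN-P18 rat 2 or 3.

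**Figure D3:**
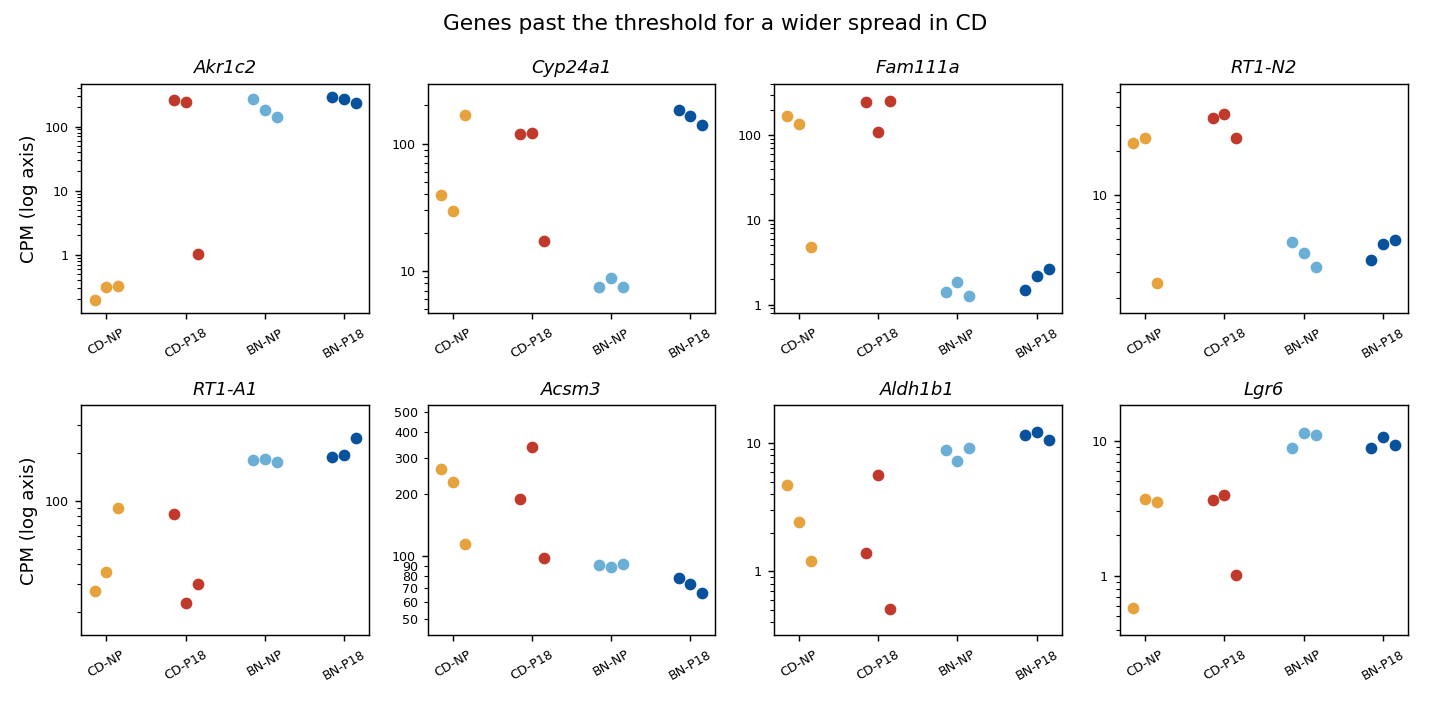
CPM on a logarithmic axis in each of the 12 rats for 8 genes with a wider spread in CD at an adjusted p under 0.1. Each point is a rat. Fam111a and RT1-N2 show 1 low CD rat, CD-NP 3, RT1-A1 shows 2 high CD rats, and the BN rats of a group lie close together in every panel.

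Genes of the rat histocompatibility complex (RT1), which present peptides to T cells and are highly polymorphic between rats, held 4 of the 12 CD-wide genes with a symbol. The 4 were among 13 RT1 genes measured, where 0.477% of genes with a symbol were past the threshold. Of the 13, 8 had the higher variance in CD and 5 in BN, where 48.3% of all genes with a symbol had it in CD. The median log2 ratio was 1.81, against -0.06 over genes with a symbol. No test was made on the family as a set. The family was taken as all measured genes whose symbol starts with RT1. The separate list of histocompatibility genes also had 13 measured members. It held 2 of the calls, with 7 members higher in CD, 6 in BN and a median log2 ratio of 0.38. RT1-A1, a classical class I gene, was at 27.2, 35.7 and 89.6 CPM in CD-NP and at 82.5, 22.8 and 29.9 CPM in CD-P18, against 177 to 250 CPM in BN. A pair of CD rats, 1 per stage, stood above the other 4, and all 6 were below every BN rat (SD 0.937 and 0.159, limma-moderated adjusted p = 0.00542). RT1-N2 was at 2.51 CPM in CD-NP rat 3 and at 22.7 to 35.9 CPM in the other CD rats, with 3.25 to 4.98 CPM in BN (SD 1.30 and 0.247, limma-moderated adjusted p = 0.0194). Without that rat the log2 variance ratio was -0.00569.

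RT1-CE15, another class I gene, had 6.89, 18.2 and 18.3 CPM in CD-NP, 4.05, 6.58 and 5.20 CPM in CD-P18 and 23.1 to 28.5 CPM in BN (limma-moderated, adjusted p = 0.0696). The class II beta chain RT1-Bb had 40.6, 122 and 150 CPM in CD-NP, 52.4, 48.0 and 40.2 CPM in CD-P18 and 99.1 to 148 CPM in BN (limma-moderated, adjusted p = 0.0982). In both genes CD-NP rats 2 and 3 were the high rats and the other 4 CD rats the low ones. Both were the weakest of the named calls. That for RT1-CE15 was lost without CD-NP rat 1 or 3, without any BN-NP rat, and without BN-P18 rat 2 or 3. That for RT1-Bb was lost without CD-NP rat 3, BN-NP rat 2, or BN-P18 rat 2 or 3, and its log2 variance ratio turned from 3.38 to -0.37 without CD-NP rat 1. RT1-CE7 (SD 0.259 and 0.0756) did not pass, and RT1-N3 (0.0608 and 0.175) and RT1-M3-1 (0.108 and 0.244) had the higher variance in BN. Reads of these genes may be split among similar copies in the family, and CD alleles were counted against BN sequence, so the levels are uncertain.

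The lists of kidney cell types and pathways were compared by the number of members with the higher variance in either strain. The higher variance was in CD for all 5 podocyte genes (median log2 ratio 1.84), against 48.3% of all genes with a symbol (-0.06). The podocyte genes moved together in 1 rat. Nphs1, the nephrin of the slit diaphragm, was at 91.7, 153 and 95.2 CPM in CD-NP and at 73.7 to 79.2 CPM in CD-P18, against 77.1 to 106 CPM in BN. The phosphatase Ptpro was at 94.5, 133 and 101.2 CPM. The mean deviation of the 5 genes in CD-NP rat 2 was 0.33 on the log2 scale, and in the other 11 rats it lay between -0.18 and 0.14. In sections of whole tissue a different number of podocytes and a different amount of RNA per podocyte cannot be told apart. None of the 5 passed the test (Nphs1, limma-moderated, adjusted p = 0.793).

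The same rat was the highest for Atp6v1b1, the proton pump subunit of intercalated cells, with 193, 322 and 243 CPM in CD-NP and 175 to 209 CPM in the 9 other rats (SD 0.264 and 0.0482, limma-moderated adjusted p = 0.428). The collecting duct list was evenly divided, with 3 of 6 members higher in each strain, where 48.3% of all genes with a symbol were higher in CD. Its sodium channel subunits went opposite ways, with SDs of 0.174 in CD and 0.0645 in BN for Scnn1a and 0.0583 and 0.0779 for Scnn1g. The anion exchanger Slc4a1 had 0.108 in CD and 0.255 in BN.

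**Figure D4:**
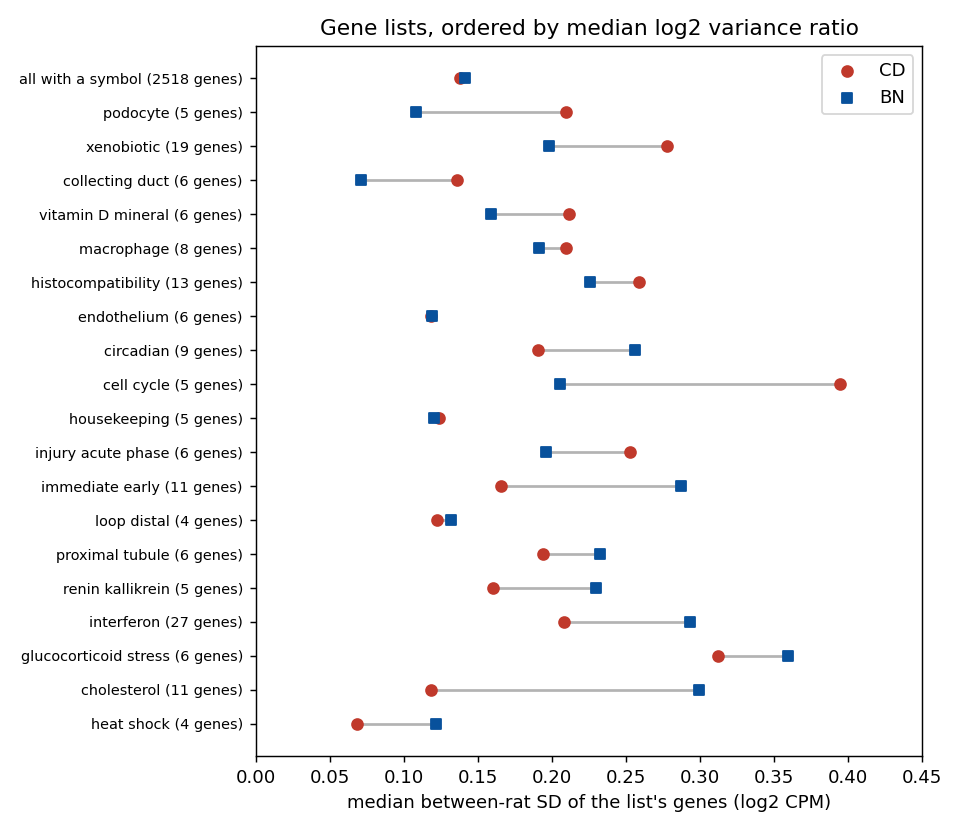
Median between-rat SD of log2 CPM over the genes of each list with at least 4 measured members, in CD (red circles) and BN (blue squares), ordered from the lowest to the highest median log2 variance ratio, with all genes that have a symbol on top. Cholesterol genes sit at 0.119 in CD and 0.299 in BN, podocyte genes at 0.209 and 0.108. For circadian, injury, housekeeping and endothelial genes the median SDs lie the other way round from the median ratio of single genes.

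Several lists had more members with the higher variance in BN. Cholesterol synthesis and uptake genes had it in 10 of 11 cases (median log2 ratio -1.82), immediate early genes in 10 of 11 (-0.84), heat shock genes in 4 of 4 (-1.88) and interferon-induced genes in 20 of 27 (-0.92), against 1302 of the 2518 genes with a symbol. Circadian genes were divided, with 5 of 9 higher in CD, and so were housekeeping genes (2 of 5 higher in CD, median log2 ratio -0.07). Of the other lists with at least 4 measured genes, the variance was higher in CD for 6 of 8 macrophage, 4 of 6 endothelial and 3 of 5 cell cycle genes, against 48.3% of all genes with a symbol. It was higher in CD for 2 of 6 glucocorticoid-responsive, 2 of 6 injury, 2 of 5 renin and kallikrein, 2 of 6 proximal tubule and 1 of 4 loop and distal tubule genes. None of these genes passed the test for a wider spread in BN, and the lists hold only genes that received a symbol from a comparison of levels in the same rats.

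The gene with a symbol and the smallest p in this direction was Hmgcs1, the cytosolic synthase that feeds the cholesterol pathway. It was at 46.5 to 49.2 CPM in the 3 CD-NP rats and 38.0 to 41.8 CPM in the 3 CD-P18 rats. In BN-NP it was at 31.5, 45 and 38.0 CPM and in BN-P18 at 96.8, 82.2 and 46.5 CPM. The SD was 0.0593 in CD and 0.432 in BN, yet the call failed (limma-moderated, adjusted p = 0.885). Cyp51, the sterol demethylase, was at 20.9, 30.3 and 27.4 CPM in BN-NP and 40.2, 49.8 and 31.7 CPM in BN-P18, and its CD rats kept to 28.3 to 31.2 CPM at NP and 20.9 to 23 CPM at P18. Both genes were lowest in rat 1 of BN-NP and in rat 3 of BN-P18. The 11 cholesterol genes did so on average too, with mean deviations of -0.12, 0.18 and -0.06 in BN-NP and 0.12, 0.24 and -0.35 in BN-P18, against -0.03 to 0.06 in the 6 CD rats. In BN-P18 all 11 were lowest in rat 3. Sc5d, a later enzyme of the pathway, had SDs of 0.0997 in CD and 0.0853 in BN.

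The promoters of these 3 genes are shown because they belong to 1 pathway, whose genes were all lowest in the same BN-P18 rat, and because Hmgcs1 and Cyp51 had the higher variance in BN and Sc5d in CD. Each runs from 250 bases before to 50 bases after the annotated start, 5′ to 3′ on the gene's own strand, from RefSeq on build GRCr8, not the Rnor_6.0 build of the counts. Capitals mark CCAAT, the box bound by NF-Y, on either strand (ATTGG on the other). Hmgcs1 lies at chr2:53382054-53382353 (+), Cyp51 at chr4:30991443-30991742 (+) and Sc5d at chr8:51538228-51538527 (-).
Hmgcs1: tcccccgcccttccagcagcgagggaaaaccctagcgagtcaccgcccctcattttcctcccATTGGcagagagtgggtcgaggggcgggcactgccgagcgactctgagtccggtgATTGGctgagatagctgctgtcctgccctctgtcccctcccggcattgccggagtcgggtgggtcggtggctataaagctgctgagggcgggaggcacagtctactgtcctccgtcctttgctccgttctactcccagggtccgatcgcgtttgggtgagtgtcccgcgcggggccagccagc
Cyp51: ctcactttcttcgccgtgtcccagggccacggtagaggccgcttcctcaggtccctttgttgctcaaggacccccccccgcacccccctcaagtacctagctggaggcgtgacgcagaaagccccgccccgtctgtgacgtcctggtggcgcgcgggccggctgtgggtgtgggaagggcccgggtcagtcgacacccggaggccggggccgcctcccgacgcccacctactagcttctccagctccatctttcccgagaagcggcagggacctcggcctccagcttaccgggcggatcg
Sc5d: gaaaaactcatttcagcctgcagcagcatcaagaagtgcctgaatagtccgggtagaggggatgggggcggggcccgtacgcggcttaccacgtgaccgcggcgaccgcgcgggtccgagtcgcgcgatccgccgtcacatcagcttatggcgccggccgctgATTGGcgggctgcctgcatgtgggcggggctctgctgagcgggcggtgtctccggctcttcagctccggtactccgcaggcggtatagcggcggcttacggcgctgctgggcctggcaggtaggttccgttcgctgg
A promoter was found for 7 of the 11 cholesterol genes, and 6 of the 7 held CCAAT in this window, against 37.5% of 33469 RefSeq promoters of the same length. The Hmgcs1 window held 2 matches, Sc5d 1 and Cyp51 none. TCACNCCAC, a form of the sterol regulatory element, was found in none of the 7 and in 1.12% of all promoters, with both strands searched. These are matches of letters, and nothing about binding was measured.

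Immediate early genes, which are transcribed within minutes of a stimulus, showed the contrast most in Junb and Nr4a3. Junb, an AP-1 subunit, was at 32.3 to 35.0 CPM in CD-NP and 24.3 to 26.6 CPM in CD-P18, and in BN at 36.8, 28.7 and 29.7 CPM at NP and 59.1, 43.7 and 27.4 CPM at P18. The orphan nuclear receptor Nr4a3 was at 23.4, 10.6 and 4.77 CPM in BN-P18 and between 1.79 and 5.50 CPM in the 9 other rats. Jun, the AP-1 partner, and the antiproliferative gene Btg2 had nearly equal SDs in the strains, with 0.182 and 0.187 for Jun and 0.149 and 0.146 for Btg2. The mean deviation of the 11 immediate early genes was -0.30 in BN-P18 rat 3, against -0.12 to 0.17 in the other rats.

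BN-P18 rat 3 stood at the other end for interferon-induced genes, with a mean deviation of 0.37 over 27 genes against -0.22 and -0.15 in rats 2 and 1 of its group. Parp14, an interferon-induced ADP-ribosyltransferase, was at 71.8, 70.8 and 119 CPM in BN-P18 and at 51.5 to 58.2 CPM in BN-NP, and its CD rats kept to 55.2 to 60.1 CPM at NP and 96.8 to 109 CPM at P18. Ifit2, an inhibitor of viral translation, was at 59.1, 42.8 and 80.7 CPM in BN-P18. Ifi27 went the other way, with SDs of 0.433 in CD and 0.201 in BN. The interferon genes thus varied within both strains, more often with the higher variance in BN.

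Further genes with a symbol and a small p in this direction belonged to no single list. The phosphate carrier Slc34a2 was at 25.7, 13.4 and 9.33 CPM in BN-NP and 20.1, 18.2 and 14 CPM in BN-P18 (SD 0.150 in CD and 0.550 in BN). The aquaglyceroporin Aqp7 of the proximal tubule was at 49.1, 46.5 and 37.2 CPM in BN-NP and 44.5, 27.8 and 33.5 CPM in BN-P18, and between 45.9 and 56.2 CPM in CD. Crym, which binds thyroid hormone, had SDs of 0.0520 and 0.258, and the growth factor receptor Erbb3 0.0310 and 0.215. For Slc34a2, Crym and Erbb3, rat 1 was the highest and rat 3 the lowest in both BN groups. The labels do not say whether the numbers tie rats of different groups together. Fgl2 (SD 0.119 and 0.352) and Tmem86a (0.121 and 0.336) were lowest in rat 3 among the BN-NP rats. For all 6 the limma-moderated adjusted p was 1.

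**Figure D5:**
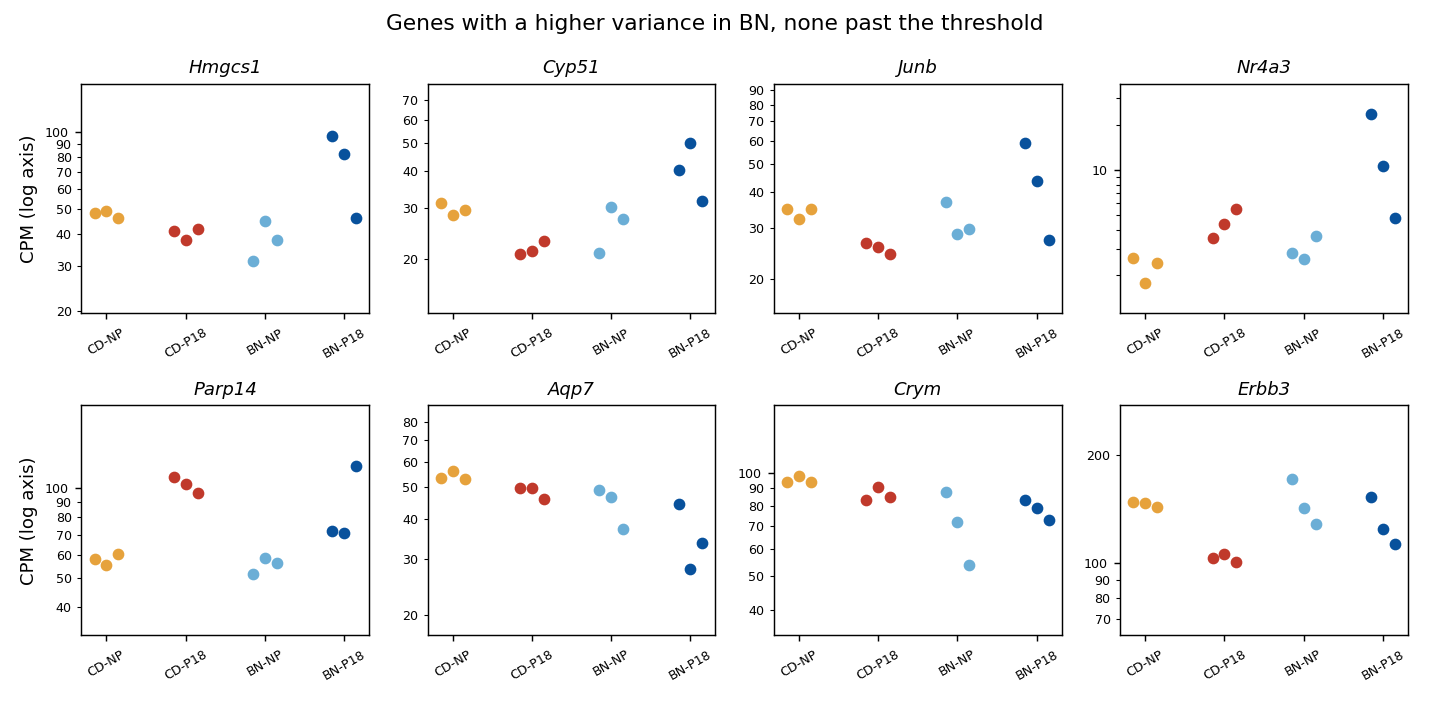
CPM on a logarithmic axis in each of the 12 rats for 8 genes with the higher variance in BN, none of which passed the test. Each point is a rat. The CD rats of a group lie close together in Hmgcs1, Junb, Crym and Erbb3, while the BN rats are drawn apart, most in BN-P18 for Hmgcs1 and Junb.

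The leading axis of the BN deviations held 46.2% of the between-rat sum of squares in BN, where the leading CD axis held 39.0%. Its scores were 0.14, -0.02 and -0.11 in BN-NP rats 1 to 3 and 0.15, -0.02 and -0.13 in BN-P18 rats 1 to 3. Of the 11217 genes, 2614 correlated with it at an absolute value of 0.8 or more over the 6 BN rats, and 1693 with the leading axis of CD. The median correlation with the BN axis was 0.24 over genes with a symbol. It was 0.66 over 4 loop and distal tubule, 0.56 over 5 podocyte and -0.65 over 27 interferon-induced genes. Over the 13 genes of the histocompatibility list it was -0.62. Over the 6 proximal tubule genes it was 0.81. The mean deviations of these 6 were 0.20, 0.01 and -0.21 in BN-NP and 0.26, -0.17 and -0.09 in BN-P18. Of these, the amino acid transporter Slc7a7 (SD 0.192 in CD, 0.339 in BN) and the fatty acid transporter Slc27a2 (0.0969 and 0.227) had the higher variance in BN, whereas Slc7a13 (0.246 and 0.190) and Slc34a1 (0.197 and 0.181) did not. Their part in the spread of other genes was not tested. Of the markers of neighbouring tissues, only 1 of blood precursors (Alas2, SD 0.141 in CD and 0.474 in BN), 1 of adipose tissue (Cidea, 0.724 and 0.623) and 1 of the urothelium (Krt19, 0.158 and 0.565) had a symbol and at least 5 CPM, and no marker of the adrenal gland had both.

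The gene with the significantly wider spread in BN had no symbol. ENSRNOG00000018884, named here after its values were seen, was at 73.5 CPM in BN-NP rat 3 and 113 CPM in BN-P18 rat 3 and at 33.0 to 39.3 CPM in the 10 other rats (SD 0.0636 in CD and 0.819 in BN, limma-moderated adjusted p = 0.0220). It was thus raised in 2 of 6 inbred rats, 1 per stage. Without CD-P18 rat 1, 2 or 3 or BN-P18 rat 3, 0 genes were called wider in BN.

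The CD-wide genes came from every range of abundance, with 3 of 1578 genes at 5 to 10 CPM, 10 of 2251 at 10 to 20, 8 of 3506 at 20 to 50, 8 of 2013 at 50 to 100, 8 of 1803 at 100 to 1000 and 1 of 66 above 1000. The median log2 variance ratio went from 0.06 at 5 to 20 CPM to -0.26 at 100 to 1000 CPM. At 5 to 10 CPM counting alone accounts for a median SD of about 0.171 in CD and 0.173 in BN, of totals of 0.226 and 0.224, so differences between rats are hardest to see there. Over all genes 47.7% had the higher variance in CD and 0.339% were CD-wide. The same held for 45 and 1 of the 100 most abundant genes. Of these genes with a symbol, the peroxisomal catalase Cat (SD 0.0233 in CD and 0.0824 in BN), the glutathione synthesis enzyme Gclc (0.0856 and 0.214) and the glutamine synthetase Glul (0.0799 and 0.185) had the lowest ratios, and the mitochondrial ND6 (0.230 and 0.108), the cadherin Fat1 (0.0838 and 0.0400) and the selenium carrier Selenop (0.165 and 0.102) the highest.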

How the data were processed

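Per the labels and the study's methods, the authors made stranded total RNA libraries after ribosomal RNA depletion, trimmed the reads with Trimmomatic, aligned them with STAR 2.5.2 to Rnor_6.0 and counted them per gene with HTSeq 0.6.1, versions as in the submitters' processing notes. The annotation release and the strand setting are not given in the sources used here. The deposited values are raw read counts with 1 column per rat. Entries that name no gene, 72.5 to 75.6% of all entries per rat, stayed out of library sizes and tests. The bisulfite files were not used.

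Counts were scaled by TMM in edgeR 4.0.16 (R 4.3.3) and taken as log2 CPM with a prior count of 2. Genes with a mean CPM of at least 5 were kept. For each gene the variance around group means was pooled over the stages of a strain (4 degrees of freedom). The variance of a strain was divided by that of the other after moderation with limma 3.58.1 (squeezeVar, trend over mean level; 5.39 prior degrees of freedom for BN and 4.50 for CD), p from the F distribution was doubled, and a Benjamini-Hochberg adjusted p under 0.1 counted as a call. Per-rat RMS deviations, scaled for group size, were compared by exact two-sided permutation of strain labels within stage (400 arrangements). The labels do not say that rats of a group came from separate litters or cages, so that p-values measure the spread between these 12 samples.

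The tests were run first on simulated counts, with the between-rat variance in CD raised 10 times for 100 genes and 30 times for 100 others. All changed genes had a mean of at least 20 CPM, so the rates of recovery do not cover genes at 5 to 20 CPM. The moderated test recovered 26 and 81 of the changed genes, with 11 false calls among 118. The plain ratio recovered 0 and 4, and the absolute deviations 0 and 0. Gene symbols came from the study's gene lists, whose fold changes and levels were matched with those of the deposited counts in the same comparisons. This paired 3063 of 3064 symbols. All 1246 symbols listed in more than 1 comparison were paired with the same identifier each time. The lists hold only genes with a small p for a level difference in these rats, so most genes carry no symbol and the gene sets lean towards changed genes. Named were the 10 genes with a symbol and the smallest p in each direction, the 2 highest and 2 lowest ratios of each gene set and, of the 100 most abundant genes, the 3 highest and 3 lowest. The members, gene sets and tests were chosen with earlier results of these data known. Some genes that this rule names are not reported here. Symbols follow current RefSeq. Alternatives covered scaling, filter, prior count, test (DESeq2 1.42.0 scaling and transformation among them), stage, replicate number and leaving out each rat.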

Additional observations from a re-analysis of the deposited data

Results flagged for a closer look

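Among these rats, the difference in per-rat spread between CD and BN had opposite signs in non-pregnant and pregnant rats. CD minus BN was 0.0428 (log2 RMS deviation) at NP and -0.0107 at P18. These strain differences differed by 0.0535 (exact two-sided permutation of strain labels within stage, p = 0.05, of 400 arrangements). This p is not under 0.05. It was computed as if the strains did not differ at either stage, so it cannot decide whether the stages differ. All 3 CD-NP rats lay above all 3 BN-NP rats, and at P18 2 of 3 BN rats lay above every CD rat. The difference was 0.0231 (exact permutation p = 0.345) without CD-NP rat 1 and 0.0284 (exact permutation p = 0.21) without BN-NP rat 2, and between 0.0393 and 0.0792 without any of the 10 other rats (exact permutation p from 0.005 to 0.2). What made CD-NP rat 1 deviate was not tested. Groups of 3 rats are too small for the test of single outlying samples used here, so none was made.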

How the results depend on the processing

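The spread of CD minus BN rats passed no threshold under the other scalings, filters, prior counts and transformation, with values between 0.00319 and 0.0267 (exact permutation p from 0.115 to 0.695). With the median absolute deviation of a rat it was -0.00473 (exact permutation p = 0.415), and with P18 rats alone -0.0107. Leaving out each rat gave 0.000352 to 0.0239. The median log2 variance ratio was -0.39 with P18 rats alone, 0.14 with NP rats alone, 0.12 with the replicate block and -0.33 to 0.0535 without each rat. P18 minus NP ranged from -0.0265 (without BN-NP 2, exact permutation p = 0.05) to 0.00388 (without CD-NP 1). The count of CD-wide genes was 21 at a mean of at least 20 CPM, 23 without a trend over level, 19 with NP rats and 12 with P18 rats alone, and 20 to 52 without each rat. The 20 to 52 genes shared 19 to 38 with the 38. The plain F test and limma on absolute deviations called 0 genes in every comparison (328 and 752 wider in CD, 321 and 788 wider in BN at an unadjusted p under 0.05). On simulated counts they recovered at most 4 of 100 changed genes of at least 20 CPM, so a lack of calls by them decides little. edgeR's quasi-likelihood deviance called 34 CD-wide genes, 30 of them among the 38. BN-wide genes numbered 0 without a trend or with NP rats alone, 3 with P18 rats alone, and 0 to 9 without each rat. Genes wider at P18 numbered 1 (without CD-P18 2) to 6 (without CD-NP 3). Genes wider at NP numbered 2 without CD-NP 2 or 3, 3 without CD-NP 1, CD-P18 1 or BN-P18 2, 12 without BN-P18 1 and 13 without BN-P18 3. At NP they were 3 at 20 CPM, with edgeR's deviance, with the ratio divided by its median and, in an alternative chosen after seeing the data, without RT1 genes, and 2 without a trend. The log2 variance ratio of Akr1c2 was -1.98 with NP rats alone and -1.62 to 7.97 without each rat. That of RT1-N2 was -0.00569 to 5.23 and that of RT1-Bb -0.37 to 5.33. Of the 12 calls with a symbol, only Cyp24a1 held under every other scaling, filter, prior count and transformation, in each stage alone, under the block and without each rat, and none held under the plain F test or limma on absolute deviations. Without genes along the leading axes (7358 left, chosen after seeing the data and not tested), CD exceeded BN by 0.0219.

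The labels do not say that replicate numbers mark a shared animal, litter or day, and the data left it unsettled. Deviations of same-numbered rats of the 2 stages correlated at 0.41, -0.14 and 0.30 for BN numbers 1 to 3. For CD numbers 1 to 3 the values were -0.04, -0.10 and 0.16. Of 12 rats, each set against the 3 rats of the other stage of its strain, 6 were closest to their own number. With the replicate block, CD exceeded BN by 0.0397, with 60 CD-wide genes, 0 BN-wide genes and 0 genes wider at P18. Under the block, same-numbered rats of a strain have deviations of equal size. The exact permutation test (p = 0.005) shuffled them as separate rats. Its p is therefore too small and cannot decide whether the strains differ. Depth limits the comparison at low levels, and 3 rats a group limit it everywhere.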
